A study of Mus musculus with 8 samples.

Results

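The proteasome genes of mouse epididymal fat, chosen as all genes whose symbol is Psm followed by a letter from a to g and a number, came to 47 of 18193 genes measured on 3′ expression arrays. They were 19 genes of the 20S core (Psma and Psmb), 20 of the 19S cap (Psmc and Psmd), 3 activators (Psme1, Psme3 and Psme4) and 5 genes of an inhibitor and of assembly factors (Psmf1 and Psmg1 to Psmg4). Psmc3ip and Psme3ip1 begin with the same letters, but encode proteins named for binding a subunit. Both were nearly constant and were left out. One probe set listed for both Psme2 and its copy Psme2b was also left out, since its signal cannot be given to 1 gene.

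The arrays measured RNA from epididymal white adipose tissue, a visceral fat pad attached to the epididymis, of male C57BL/6 littermates aged 12 weeks and fed standard chow. The 4 LPA4-KO mice carried a deficient allele of the X-linked gene Lpar4 (Lpar4 -/Y), which encodes LPA4, a receptor for lysophosphatidic acid, and the 4 WT mice were wild type. Each array is labelled as a separate biological replicate. The labels name no Cre driver, so the deficiency is taken as that of the whole animal, and the fat pad was sampled with all its cell types. Values are log2, a scale inferred from the range of the deposited table. Group means are given ± SD (n = 4), and differences, always LPA4-KO minus WT, ± the SE of the fit over all genes. For Lpar4, and for probe sets other than the brightest of a gene, the SE is that of a fit over all probe sets.

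The proteasome is the large protease that degrades proteins tagged with ubiquitin. Its 20S core is a barrel of α rings, which form the gate, and β rings, which hold the proteolytic sites. The 19S cap recognises, unfolds and feeds in substrates, and other activators open the barrel without ubiquitin. In fat cells its substrates include PPARγ, the main transcription factor of fat cell formation, and the transcription factor encoded by Nfe2l1 is known to raise subunit genes together when the proteasome is short.

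The labels were checked first at the targeted gene. At 1 of 3 Lpar4 probe sets the 4 LPA4-KO arrays stood at 5.78, 5.86, 5.83 and 5.74 and the WT arrays at 6.48, 6.51, 6.53 and 6.54, so the groups did not overlap (-0.71 ± 0.03, limma adjusted p = 0.0033 over all probe sets). The remaining Lpar4 probe sets had higher means in LPA4-KO mice, with overlap between groups. The first stood at 7.11 ± 0.46 against 6.43 ± 0.18 (0.68 ± 0.24, limma adjusted p = 0.233). The second stood at 7.35 ± 0.51 against 6.87 ± 0.09 (0.48 ± 0.25, limma adjusted p = 0.392). Which part of the gene was deleted is not given in the sources used here, and a probe set outside it checks nothing. The tissue label was checked against fat cell markers. Adipoq, the adiponectin gene, and Fabp4, a fatty acid binding protein of fat cells, stood at the 99.99th and the 99.96th percentile of genes by level.

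Many proteasome genes carried no usable difference in the deposited table. Of the 47, 23 had all 8 arrays within 0.1 log2 of each other, and 21 of these spanned under 0.002 log2. The other 24 (51.1%) varied, against 22.1% of all genes. These shares are not matched for level: the median level was 9.738 log2 over members and 6.933 over all genes. Of all genes, those that varied had a median level of 8.606 and the flat ones 6.575. The nearly constant members were not the faint ones alone: 11 of the 23 had a mean level above 9 log2, and Psma3, an α ring subunit at the 98.39th percentile of genes, read 11.22 on each of the 8 arrays. Such a flat value does not show that a gene kept its level. Just below the limit lay Psmb6, the caspase-like catalytic subunit, which spanned 0.092 log2, and Psmb2, a structural β subunit, which spanned 0.021. Just above it lay Psmd12, a lid subunit of the cap, with 0.193, and Psmd4, a ubiquitin receptor, with 0.196.

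**Figure D1:**
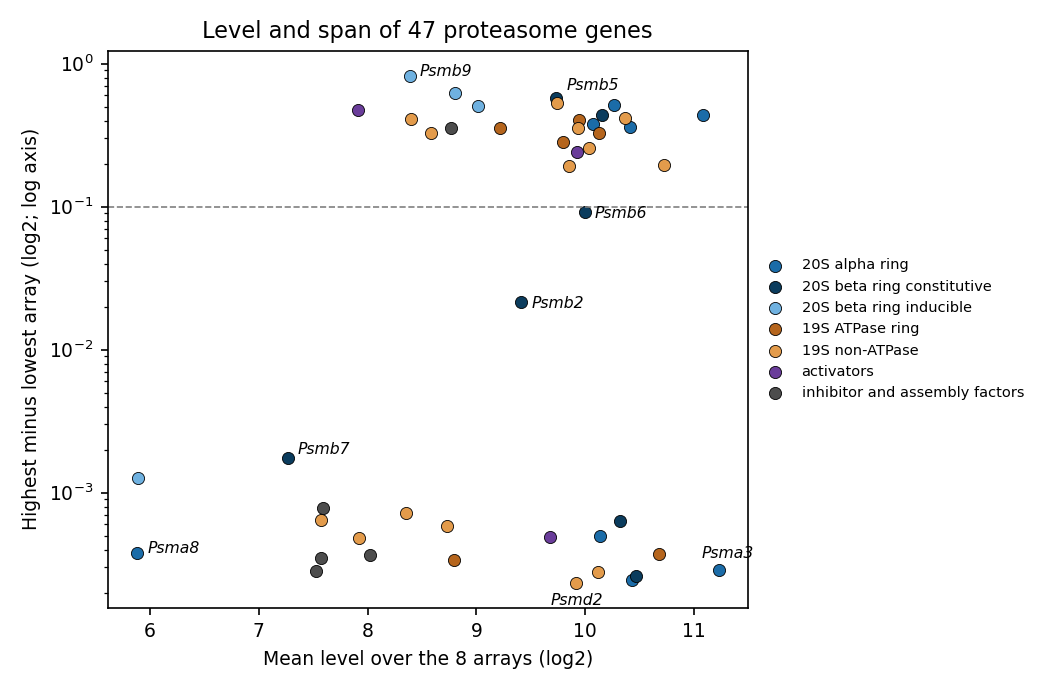
Each point is 1 of the 47 proteasome genes, with its mean level over the 8 arrays (log2) on the x axis and its span between the lowest and highest array (log2, on a log axis) on the y axis, coloured by subcomplex; the dashed line is the limit of 0.1 log2. The genes form an upper band of 24 that varied and a lower band below 0.002 log2, with Psmb6 and Psmb2 between them.

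Most proteasome genes that varied had a higher mean in LPA4-KO mice, by at most 1.35-fold. Of the 24, 22 (91.7%) had a positive difference, while 46.6% of all 4029 varying genes did. The median difference was 0.14 log2 over these members and -0.03 log2 over all varying genes. Over all 47 members, flat ones included, it was 0.013, against 3.96e-05 over all genes. The span limit lets genes that differ between groups pass more easily, so counts over varying members describe those members and are read beside the same counts over all varying genes. Every LPA4-KO array lay above every WT array in 9 of the 24 (37.5%), against 14.4% of varying genes, and the opposite order was seen in 0 of the 24, against 14.5%. Genes were called in a limma fit at a Benjamini-Hochberg adjusted p under 0.05, once over all genes and once over the varying genes alone. Over all genes 2 of 47 members rose (4.26%), Psmd1 and Psmg1, with 1.31% of all genes called in either direction and 0.863% called higher. Among varying genes 7 of 24 rose (29.2%) and 0 fell, with 21.3% of varying genes called in either direction, 9.78% higher and 11.5% lower. At an unadjusted p under 0.05 there were 14 of the 47, against 17.6% of all genes, and 3 of the 14 were nearly constant members (Psmb2, Psmb6 and Psmd10).

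**Figure D2:**
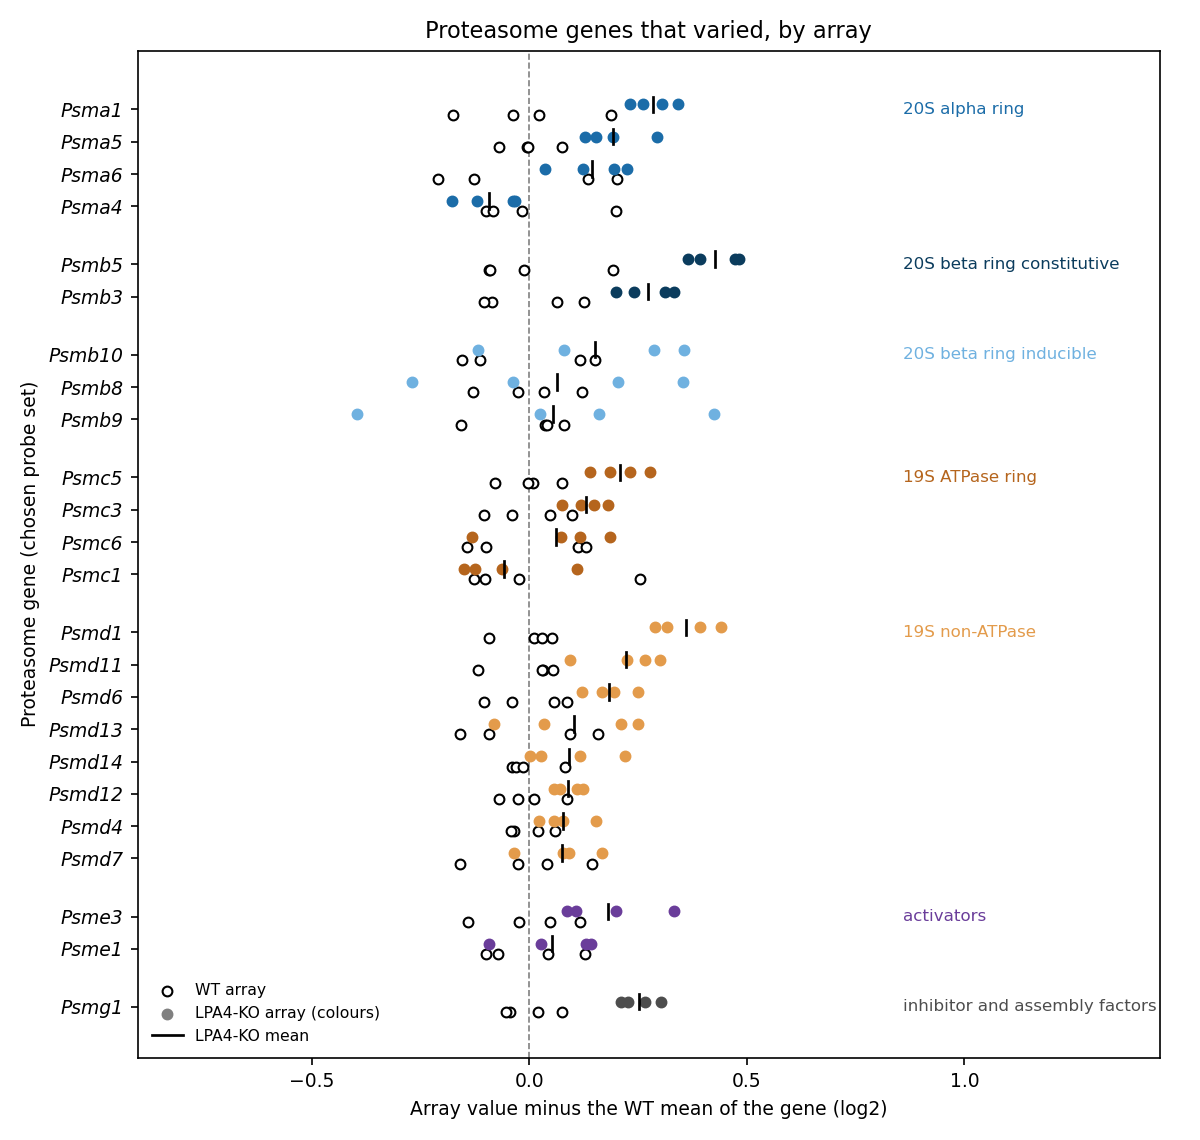
Each row is 1 of the 24 proteasome genes that varied, grouped by subcomplex, and each point is 1 array, given as its log2 value minus the WT mean of that gene. Open points are the 4 WT arrays, filled points the 4 LPA4-KO arrays, and the black bar is the LPA4-KO mean, which lies right of 0 in 22 of 24 rows; the inducible subunits have the widest LPA4-KO spread.

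Read array by array, the 24 members showed the same tilt, which restates their differences and is no separate evidence. The number of the 24 members that lay above their own mean over the 8 arrays was 17, 20, 20 and 18 on LPA4-KO arrays 1 to 4, and 11, 6, 6 and 4 on WT arrays 1 to 4. The mean over the 24 members was 9.72, 9.71, 9.71 and 9.68 on the LPA4-KO arrays and 9.60, 9.56, 9.56 and 9.52 on the WT arrays. The groups did not overlap in either measure. Neither measure was taken over all varying genes, so no background stands beside it.

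**Figure D3:**
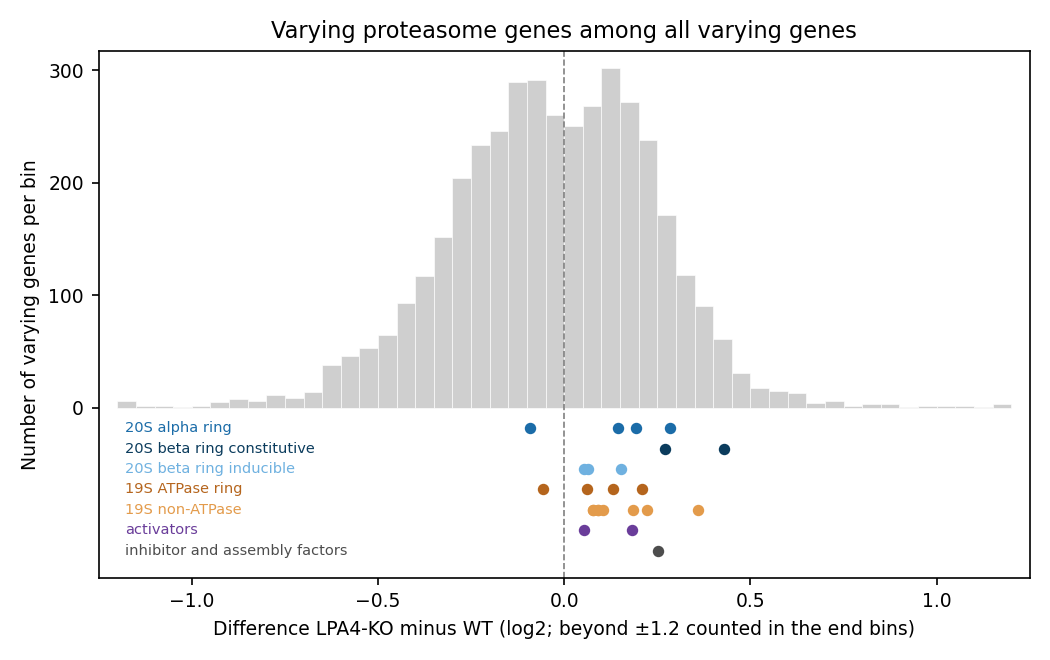
Grey bars count the 4029 varying genes by their difference LPA4-KO minus WT (log2, in bins of 0.05, with larger differences counted in the end bins), and the coloured points below the axis are the 24 varying proteasome genes, 1 row for each subcomplex. All points but those of Psma4 and Psmc1 lie right of 0, and none lies beyond 0.43.

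In the α rings of the 20S core, 4 of 8 genes varied, 3 of them with a positive difference. Psma1 stood at 10.46, 10.38, 10.35 and 10.42 on LPA4-KO arrays 1 to 4 and at 10.31, 10.14, 10.08 and 9.94 on the WT arrays, where the highest WT array came close to the LPA4-KO group without reaching it. It was 1.22-fold higher (0.29 ± 0.08), a rise among varying genes (adjusted p = 0.0366) but not over all genes (adjusted p = 0.131). Its call among varying genes held in 1 of 8 fits with an array left out. It also ended with the mean of all its 4 probe sets, of which 2 varied (0.09, adjusted p = 0.076).

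Psma5, another α subunit, did not overlap either, at 10.61, 10.51, 10.47 and 10.44 against 10.39, 10.31, 10.25 and 10.31. It missed the threshold in both fits (0.19 ± 0.05, adjusted p = 0.0989 over all genes and 0.0552 among varying genes), and its second varying probe set gave 0.23 ± 0.04. Psma6 had the highest level among varying members, and its groups overlapped (11.15 ± 0.08 against 11.01 ± 0.20). Its 3 varying probe sets ran from 0.15 to 0.24.

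Psma4 was the member with the lowest difference of all, at 10.08, 10.09, 10.00 and 9.94 in LPA4-KO and 10.32, 10.10, 10.02 and 10.04 in WT mice (-0.09 ± 0.07, adjusted p = 0.592 over all genes). WT replicate 1 alone stood apart from the rest, and the difference was -0.03 without it, the nearest to 0 of its values with an array left out. Psma2, Psma3, Psma7 and Psma8, the last an α subunit of the testis, were nearly constant. Psma8 had the lowest level of all members, 5.88.

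Among the 7 constitutive β subunits, Psmb5 and Psmb3 varied and both rose among varying genes. Psmb5 encodes the chymotrypsin-like catalytic subunit, the main target of proteasome inhibitor drugs, and had the largest difference of any member. Its LPA4-KO arrays read 9.91, 10.00, 9.99 and 9.88 and its WT arrays 9.43, 9.43, 9.71 and 9.51. WT replicate 3 was the highest of its group and still lay below every LPA4-KO array. The gene was 1.35-fold higher (0.43 ± 0.07), with an adjusted p of 0.0105 among varying genes and 0.0518 over all genes, just past the threshold. Of all varying genes, 96.9% had a lower difference. The call among varying genes held in all 8 fits that left out 1 array, with differences from 0.40 to 0.49. Over all genes the gene was called after median centring (adjusted p = 0.0457) and after quantile normalization (0.0301), and not with the mean of all probe sets (0.0503).

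Psmb3, a β subunit without a proteolytic site, read 10.33, 10.35, 10.26 and 10.22 against 10.14 or less in WT mice (9.93, 10.14, 10.08 and 9.91). The rise was 1.21-fold (0.27 ± 0.06, adjusted p = 0.0298 among varying genes, 0.0918 over all genes) and its second probe set gave 0.24 ± 0.06, also without overlap. Its call held in 2 of 8 fits with an array left out. Psmb6 and Psmb2, between the bands, differed by 0.04 ± 0.01 and 0.013 ± 0.003. In Psmb2 the groups lay close without overlap (9.412 to 9.414 on the LPA4-KO arrays, 9.393 to 9.406 on the WT arrays). Groups also did not overlap in the nearly constant Psmb4, Psmc2 and Psmd10, which spanned under 0.002 log2, so this order is not read as a usable difference. Psmb1, Psmb4 and Psmb7, the trypsin-like subunit, were nearly constant at the chosen probe set. A second Psmb4 probe set with a lower level varied and differed by 0.00 ± 0.08.

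The inducible subunits Psmb8, Psmb9 and Psmb10 replace Psmb5, Psmb6 and Psmb7 in the immunoproteasome, the form that interferon raises and that cuts peptides for MHC class I. None of the 3 was called in either limma fit, and 0 had an unadjusted p under 0.05. Psmb8 stood at 9.13, 8.74, 8.98 and 8.50 in LPA4-KO and 8.75, 8.64, 8.81 and 8.90 in WT mice (0.06 ± 0.14, adjusted p = 0.879). Psmb9 stood at 8.78, 8.38, 8.52 and 7.96 against 8.44, 8.20, 8.40 and 8.40 (0.05 ± 0.17, adjusted p = 0.922). Psmb10 stood at 9.30, 9.02, 9.23 and 8.82 against 8.79, 8.83, 9.09 and 9.06 (0.15 ± 0.13, adjusted p = 0.609).

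In these genes the LPA4-KO group held both the highest and, in Psmb8 and Psmb9, the lowest array. LPA4-KO replicate 1 was highest and replicate 4 lowest of its group in all 3, with replicates 3 and 2 between, and the same order was seen in Psme1, an activator subunit that interferon also induces. Without LPA4-KO replicate 1 the differences of Psmb8 and Psmb9 turned to -0.03 and -0.07. Psmb11, the form of the thymus, was nearly constant at a low 5.89. Whether the difference of Psmb5 exceeds that of its inducible counterpart Psmb8 was not tested.

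**Figure D4:**
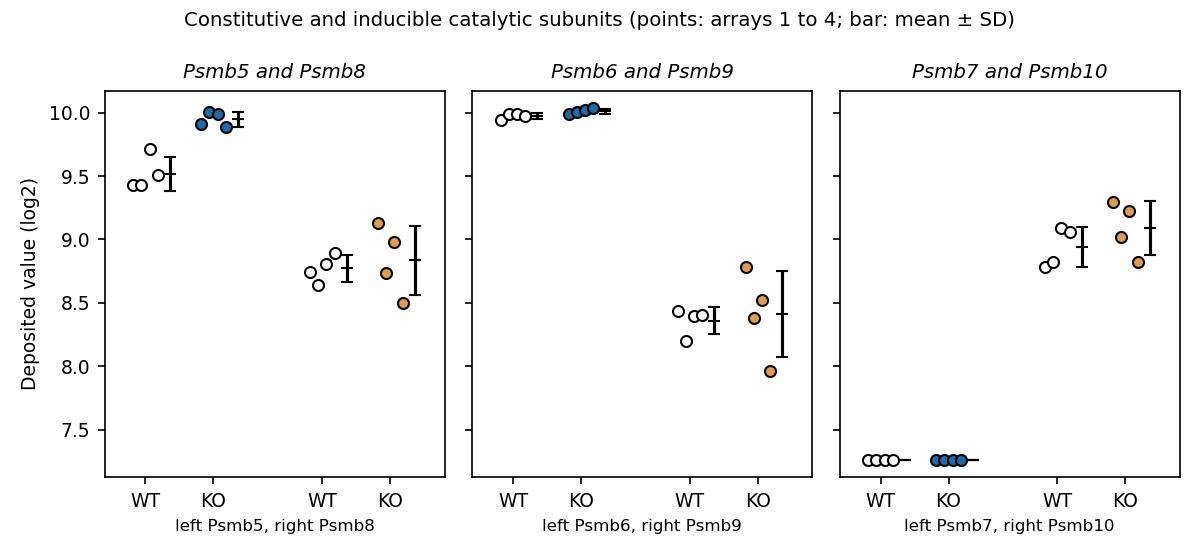
Each panel shows a constitutive catalytic subunit (left) and its inducible counterpart (right) in WT (open points) and LPA4-KO arrays (filled points, labelled KO), with the deposited log2 value on the y axis and bars for the mean ± SD of 4 arrays. Psmb5 separates the groups, Psmb6 and Psmb7 are close to constant, and Psmb8, Psmb9 and Psmb10 overlap.

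Of 12 antigen processing and interferon genes, 9 varied and 7 of these had a negative difference. Tapbp, the tapasin gene that loads peptides onto MHC class I, fell among varying genes, from 10.35 ± 0.10 in WT to 10.03 ± 0.14 (-0.33 ± 0.08, adjusted p = 0.0291), a call that held in 3 of 8 fits with an array left out, and 0 rose. Nlrc5, which encodes an activator of MHC class I genes, had the largest difference of the list and in the other direction, with every LPA4-KO array above every WT array (7.96 ± 0.18 against 7.52 ± 0.28, 0.44 ± 0.16), and did not pass (adjusted p = 0.0558 among varying genes). The MHC class I genes H2-K1 (-0.09 ± 0.09) and H2-D1 (-0.06 ± 0.04) did not pass either. Macrophages and lymphocytes carry the immunoproteasome at high levels, so markers of both were read beside these genes. All 12 varying macrophage markers of 14 measured had a negative difference, and 3 of them fell among varying genes, with 11.5% of all varying genes called lower. The summed level of the 14 ran from 13.78 to 13.95 log2 in LPA4-KO and from 13.91 to 14.25 in WT mice. Of 8 lymphocyte markers 3 varied, all with a negative difference. Limma called 0 of the 8 in either fit. Of the 3 varying markers, Ptprc, which macrophages carry too, had an unadjusted p of 0.0442 over all genes and the others had higher ones. Ptprc had the highest level of the 8 (8.94) and so leads the summed level. That sum overlapped between groups (9.96 to 10.15 against 10.09 to 10.34). In a whole fat pad, fewer cells of a type and less RNA per cell cannot be told apart, and the part of these cells in the values of Psmb8, Psmb9 and Psmb10 was not tested.

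In the ATPase ring of the 19S cap, which unfolds substrates, 4 of 6 genes varied and Psmc5 rose among varying genes. It read 9.25, 9.29, 9.34 and 9.39 in LPA4-KO and 9.03, 9.12, 9.11 and 9.18 in WT mice, with no overlap (1.16-fold, 0.21 ± 0.04, adjusted p = 0.0454, and 0.0743 over all genes). The call ended whichever of the 8 arrays was left out. Psmc3 differed by 0.13 ± 0.05 and Psmc6 by 0.06 ± 0.09 without a call. Psmc1 was the second member with a negative difference, at 9.84, 9.91, 9.82 and 10.08 against 10.22, 9.94, 9.84 and 9.87 (-0.06 ± 0.10, adjusted p = 0.841). As in Psma4, WT replicate 1 was the highest array, and without it the difference of Psmc1 was 0.03. Psmc2 was nearly constant at its brightest probe set (10.67), while a second probe set varied without overlap, from 9.94 to 10.06 in LPA4-KO and from 9.77 to 9.91 in WT mice (0.14 ± 0.04, adjusted p = 0.159 over all probe sets). Psmc4 was nearly constant.

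Of the 14 non-ATPase genes of the cap, 8 varied, all with a positive difference. Psmd1, which encodes the large scaffold of the cap base, rose in both fits. It stood at 10.00, 9.95, 9.87 and 9.85 in LPA4-KO and at 9.47, 9.57, 9.61 and 9.59 in WT mice, so that the lowest LPA4-KO array was above the highest WT array by more than the SD of either group (0.07 and 0.06). The difference was 1.28-fold (0.36 ± 0.05, adjusted p = 0.0319 over all genes and 0.0105 among varying genes). The call over all genes ended whichever array was left out, with adjusted p from 0.053 to 0.088. The call among varying genes held in all 8.

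Psmd11, a lid subunit tied to assembly of the full proteasome, read 10.35, 10.48, 10.55 and 10.52 against 10.28, 10.31, 10.28 and 10.14. The groups did not overlap, though LPA4-KO replicate 1 came near the WT arrays. It rose among varying genes at the edge of the threshold (1.17-fold, 0.22 ± 0.06, adjusted p = 0.0495, and 0.123 over all genes). The call held in 1 of 8 fits with an array left out. It ended with the mean of all its probe sets (0.05, adjusted p = 0.213) and among genes above the median level (0.22, adjusted p = 0.0502).

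The lid gene Psmd6 read 9.96, 10.04, 10.01 and 10.09 against 9.93, 9.90, 9.74 and 9.80, with no overlap at this probe set or at a second one (0.18 ± 0.05 and 0.22 ± 0.06), and missed the threshold (adjusted p = 0.131 over all genes and 0.0742 among varying genes). The remaining varying cap genes overlapped between groups and lay between 0.08 and 0.10. They were Psmd4, a ubiquitin receptor (0.08 ± 0.04), Psmd7 (0.08 ± 0.07), its partner Psmd14, the deubiquitinase that strips ubiquitin before entry (0.09 ± 0.05), Psmd12 (0.09 ± 0.04) and Psmd13 (0.10 ± 0.10). Psmd2, Psmd3 and Psmd8, with the assembly chaperone genes Psmd5, Psmd9 and Psmd10, were nearly constant.

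Of the activators, Psme1 and Psme3 varied and 0 were called in either limma fit or had an unadjusted p under 0.05. Psme3, which encodes the nuclear activator, read 7.91, 8.02, 7.93 and 8.16 in LPA4-KO and 7.87, 7.94, 7.80 and 7.68 in WT mice (0.18 ± 0.08, adjusted p = 0.288), and 1 WT array lay above the lowest LPA4-KO arrays. Psme1 read 10.04, 9.92, 10.03 and 9.80 against 9.80, 9.82, 9.94 and 10.02 (0.05 ± 0.07, adjusted p = 0.789). Psme4 was nearly constant at 9.68.

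Among the factors that build or inhibit the proteasome, Psmg1 rose in both fits. Its product pairs with that of Psmg2 to assemble the α ring. Psmg1 stood at 8.87, 8.91, 8.85 and 8.94 in LPA4-KO and 8.66, 8.72, 8.60 and 8.59 in WT mice, 1.19-fold higher with no overlap (0.25 ± 0.04, adjusted p = 0.0363 over all genes and 0.0219 among varying genes). The call over all genes ended whichever array was left out (adjusted p from 0.051 to 0.096), and that among varying genes held in 4 of 8. Psmg2, Psmg3 and Psmg4 were nearly constant. Psmf1, the gene of a proteasome inhibitor and adaptor, was nearly constant at its brightest probe set, while 2 others of its 4 probe sets varied and both had negative differences. The first read 7.43, 7.38, 7.27 and 7.23 against 7.54, 7.61, 7.46 and 7.41 (-0.18 ± 0.06, adjusted p = 0.229 over all probe sets), with overlap, and the second differed by -0.11 ± 0.05.

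The probe sets of 1 gene mostly went the same way. The 47 genes had 100 probe sets, of which 37 varied, 32 with a positive and 5 with a negative difference. Every LPA4-KO array lay above every WT array in 14 of the 37, against 12.9% of all varying probe sets. In 8 of 9 genes with several varying probe sets these had 1 sign, and in Psmc6 they differed (0.06 and -0.05). When every probe set was fitted on its own, the 2 that belong to Psmd1 and Psmg1 were called, with 0.933% of probe sets called.

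Genes that work around the proteasome were read from lists. The calls among varying genes in these lists stand beside 9.78% of all varying genes called higher and 11.5% called lower. Of 8 genes of other proteasome-bound proteins, 4 varied, all with a positive difference. Uchl5, a deubiquitinase of the cap, rose among varying genes (8.96 ± 0.09 against 8.72 ± 0.09, 0.24 ± 0.06, adjusted p = 0.0455), a call that held in 2 of 8 fits with an array left out. Pomp, the maturation factor of the core, differed by 0.15 ± 0.04 and did not pass.

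Of 12 genes of proteasome gene transcription, 8 varied, 4 in each direction, and 2 rose and 1 fell among varying genes. Nfe2l1 rose from 9.29 ± 0.12 to 9.55 ± 0.06 (0.26 ± 0.06, adjusted p = 0.0409), and Mafg, the gene of a small partner of that factor, from 8.04 ± 0.10 to 8.32 ± 0.06 (0.28 ± 0.06, adjusted p = 0.028). With an array left out, the call of Nfe2l1 held in 0 of 8 fits and that of Mafg in 3 of 8. Stat3, a signal-driven factor, fell from 9.66 ± 0.19 to 9.11 ± 0.09 (-0.55 ± 0.10, adjusted p = 0.0105) and kept this call in 8 of 8. Nfe2l2 (0.11 ± 0.11) did not pass. None of the 3 was called over all genes.

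Of 12 ubiquitin and substrate delivery genes, 6 varied, 4 with a positive difference. Ubqln2, which encodes a shuttle that carries ubiquitinated proteins to the cap, fell among varying genes (-0.25 ± 0.07, adjusted p = 0.0449). The call ended whichever array was left out, after quantile normalization, and with the mean of its probe sets. Its relative Ubqln4 differed by 0.22 ± 0.06 without a call. Vcp, the segregase that unfolds ubiquitinated proteins, was nearly constant.

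Since Nfe2l1 and Nfe2l2 proteins bind the antioxidant response element, its core TGACNNNGC was searched on both strands of the 250 bases before each start site. RefSeq promoters of build GRCm38.p6 were found for 39 of the 47 genes. The core was present in 5 of them (12.8%), Psmb5, Psmb6, Psmc6, Psmd9 and Psmd12, and in 11.5% of all 27025 genes of that table (10.2% of promoters). Of the 7 genes that rose in either fit, 1 had it, Psmb5. Both members with the core near the start site on the coding strand and a catalytic site are shown with the members that rose over all genes. Each line holds the 150 bases before the start site, 5′ to 3′ on the strand of the gene, with the core in capitals.
Psmb5, chr14:54617996-54618145, minus strand: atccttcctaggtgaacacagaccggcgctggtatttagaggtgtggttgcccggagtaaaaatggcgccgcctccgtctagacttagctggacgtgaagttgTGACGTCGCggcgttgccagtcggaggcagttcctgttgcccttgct
Psmb6, chr11:70525207-70525356, plus strand: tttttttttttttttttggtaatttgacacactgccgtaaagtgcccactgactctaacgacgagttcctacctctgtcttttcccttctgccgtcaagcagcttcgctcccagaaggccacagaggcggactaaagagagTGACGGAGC
Psmd1, chr1:86064469-86064618, plus strand: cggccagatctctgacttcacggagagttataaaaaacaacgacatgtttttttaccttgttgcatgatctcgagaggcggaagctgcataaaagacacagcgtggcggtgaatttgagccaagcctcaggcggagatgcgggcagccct
Psmg1, chr16:95990961-95991110, minus strand: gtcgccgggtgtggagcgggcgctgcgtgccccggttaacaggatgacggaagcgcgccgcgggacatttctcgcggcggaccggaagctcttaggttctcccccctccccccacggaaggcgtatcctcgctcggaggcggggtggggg

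The core lay 47 to 39 bases before the start of Psmb5, whose RNA differed by 0.43 log2, and 9 bases to 1 base before that of Psmb6, which differed by 0.04 log2. The sequences of Psmd1 and Psmg1, both higher in LPA4-KO fat, held no such letters in the window. A match is a description of the sequence and no measured binding.

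Markers of other cell types were read in the same way. Among varying genes 5 of the 9 varying progenitor and fibroblast markers (10 measured) and 3 of 10 mesothelial markers fell, with 11.5% of all varying genes called lower. The progenitor and fibroblast marker Dpt also fell over all genes (-0.43 ± 0.04, limma adjusted p = 0.0229), where 82 of 18193 genes were called lower. Limma called 0 of the adipocyte or endothelial markers (2 of each list at an unadjusted p under 0.05: Plin4 at -0.14 and Retn at 0.18, and Egfl7 at -0.11 with the nearly constant Tek). The summed level of the progenitor and fibroblast markers ran from 14.68 to 14.83 log2 in LPA4-KO and from 14.89 to 14.97 in WT mice, with no overlap, and that of the mesothelial markers from 10.99 to 11.53 against 11.43 to 12.32, with overlap. The summed level of 10 adipocyte markers ran from 15.78 to 15.87 against 15.77 to 15.81, with 6 of 8 varying markers positive, and that of 8 endothelial markers from 11.82 to 11.88 against 11.84 to 11.90, both with overlap. Bright genes weigh most in such sums. In the progenitor sum these were the nearly constant Gsn (13.75) and the uncalled Dcn (13.15 in LPA4-KO, 13.40 in WT mice). The adipocyte sum held the nearly constant Adipoq (13.83) and Fabp4 (13.40), so its overlap does not show a kept level. The 5 germ line and epididymis markers were nearly constant at a median level of 6.07. The part of cell makeup in the differences of the proteasome genes was not tested.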

How the data were processed

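Total RNA of 4 LPA4-KO and 4 WT mice was biotin-labelled with a 3′ kit and hybridised to 1 array each, per the labels. The authors deposited 1 value per probe set and array, read here as log2 from its range. R 2.14.0 is named in the submitters' processing notes; the sources used here give no background correction, normalization, summarisation or log base. Of 45101 probe sets, 34945 had 1 gene in the platform annotation, and 932 had several and were left out. For each gene the probe set of highest mean level over the 8 arrays was kept. Of all probe sets, 37501 (83.1%) spanned no more than 0.1 log2.

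The genotypes were tested with limma 3.58.1 (R 4.3.3, eBayes with a trend), over 18193 genes and over the 4029 that spanned over 0.1 log2, with no block. That limit uses all arrays together, so a gene that differs between groups passes it more easily. Summed marker levels are log2 of the sum of 2 to the power of each value. The smallest exact permutation p for 4 against 4 arrays is 0.0286, so single genes were tested with limma alone. The number of arrays limits the precision. The rule names members called in either fit, the largest difference of each sign per subcomplex, and, of the other lists, called genes and that with the smallest p; further genes named from those lists were chosen after their values were seen. Members, lists and rules were chosen with earlier results of these data known.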

Additional observations from a re-analysis of the deposited data

Results flagged for a closer look

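In Psmd11, WT replicate 4 stood at 10.14, far from the other WT arrays, which lay between 10.28 and 10.31. The gap was 0.849 of the range of the group. It was the 1 case among 48 groups of 4 arrays examined (24 varying members in 2 genotypes), and chance flags about 1 in 20 groups. Without that array the difference of Psmd11 was 0.18 log2.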

How the results depend on the processing

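All differences of the 24 varying members kept their direction under quantile normalization, median centring, the mean of all probe sets and array weights (96 values, of which 85 moved and 0 reversed). Other moderation, the replicate block and the filter on level change the test and not the difference. With 1 array left out 3 of 192 reversed: Psmb8 to -0.034 and Psmb9 to -0.070 without LPA4-KO replicate 1 (ranges -0.034 to 0.17 and -0.070 to 0.20), and Psmc1 to 0.03 without WT replicate 1 (range -0.11 to 0.03). The count of 2 members called over all genes stood beside 157 genes called higher and 82 lower. It became 16 after quantile normalization, where 8799 genes were called higher and 637 lower over all genes. It became 4 with robust moderation (172 higher and 90 lower). Among genes above the median level it was 5 (304 higher and 191 lower of 9096 tested). With 1 array left out it was 0 to 1. Without an LPA4-KO array, 8 to 23 of all genes were called higher and 1 to 9 lower. In every case the called members were higher. The count of 7 among varying genes stayed between 5 and 9 under these alternatives and a span limit of 0.2 log2, and was 2 to 5 with 1 array left out. Median differences over all members, flat ones included, were 0.013 for the 20S core (0.00037 to 0.015 with 1 array left out), 0.07 for the 19S cap (0.018 to 0.096) and 0.05 for the activators (0.018 to 0.0998). The cap median was 0.026 with the mean of all probe sets and 0.091 with array weights, and that of the activators 0.063 after quantile normalization, 0.056 after median centring and 0.028 with array weights. The mean of all probe sets averages in nearly constant ones, which makes the difference of such a gene smaller. The cause of the other shifts was not tested. After the data were seen, the same alternatives were added for probe sets and for the Lpar4 probe set that was lower in LPA4-KO mice. The 2 called of 100 member probe sets became 49 after quantile normalization and 0 with 1 array left out. All probe sets called after quantile normalization were not counted, so the 49 is not read as a result about the members. That Lpar4 probe set stayed between -0.73 and -0.69 with 1 array left out. The remaining Lpar4 probe sets, higher in LPA4-KO mice, were not taken through these alternatives.

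Replicate numbers are shared between the groups but are not said to pair mice, and deviations of same-numbered arrays correlated at 0.018, 0.078, 0.24 and -0.18 over varying genes (other pairings -0.27 to 0.31), so the numbers were not taken as pairs. With the replicate block 0 members were called over all genes, where 0 of all genes were called, and 0 member probe sets. Among varying genes 5 members were called. No count over all varying genes is given beside it, so the 5 is not read as a result about the members. The Lpar4 probe set that was lower in LPA4-KO mice differed by -0.71 with a limma adjusted p of 0.085. These fits have 3 residual degrees of freedom.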
